A study of Mus musculus with 2 samples.

Results

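Histone lysine methyltransferases and demethylases were examined in cultured neural stem cells of young and aged mice. The genes were chosen by symbol: those that start with Kdm, Kmt, Setd, Prdm, Suv39h or Smyd in the form used for these families, together with Ezh1, Ezh2, Ehmt1, Ehmt2, Nsd1 and Dot1l. Of the 27998 genes in the deposited files, 62 had such a symbol, and 55 of these also had at least 100 unique molecular identifiers (UMIs, distinct captured transcripts) over both libraries. The 7 others were Kdm6bos (65 UMIs), Smyd1 (27), Kdm4d (7), Prdm14 (2), Prdm12 (1), Prdm6 and Prdm13 (both 0). The rule used symbols and total UMIs and no measured difference, but it was set with earlier results of these data known. Setd8 is the files' older symbol of Kmt5a, which encodes the H4K20 monomethyltransferase.

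Methyl groups on lysines of histone tails mark chromatin by residue. Methylation of H3K4 lies at active promoters and enhancers, H3K36 and H3K79 methylation lies over transcribed genes, and H3K9 and H3K27 trimethylation marks heterochromatin and genes silenced by Polycomb. SET domain enzymes (and Dot1l, which has no SET domain) write these marks, and the LSD1-type amine oxidases and the Jumonji-type oxygenases remove them. In the subventricular zone (SVZ), the germinal layer along the lateral ventricles, Ezh2, Kdm6b and Kmt2a are known regulators of adult neurogenesis. Not every PRDM or SMYD protein is known to methylate histones, and several are DNA-binding factors or methylate other proteins.

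The study made 2 single-cell libraries with 10x Genomics 3′ version 3 chemistry. One came from C57BL/6 mice aged 2 months (young), the other from C57BL/6 mice aged 15 to 18 months (aged). The labels give no transgene, treatment or sex. In both groups SVZ tissue of 5 mice was pooled and dissociated, and the cells were cultured in a medium for proliferation before capture. With 1 library for each age no test was run, and an effect of age and one of pool, culture or library cannot be told apart. All intervals are 95% intervals and cover counting error only. Levels are counts per 1000000 UMIs (CPM) summed over cells; counts of 3′ ends do not separate isoforms and are not compared between genes here.

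The cells that passed the filters numbered 2639 (young) and 2527 (aged) and held 58891207 and 60140272 UMIs, with medians of 22951 and 23745 UMIs per cell. The 55 genes took 0.207% (young) and 0.218% (aged) of these UMIs. Of the neural stem and progenitor cell markers, Sox2 stood at 262 and 288 CPM (young and aged), Nes at 675 and 638 CPM and Egfr at 144 and 166 CPM. Among astrocyte or quiescent stem cell markers 13 of 18 reached 10 CPM, and of the endothelial, pericyte and ependymal markers none did. Of the oligodendrocyte precursor markers 3 of 8 did, and that list summed to 1197 and 991 CPM (young and aged). The libraries had 4 barcodes in common, and no barcode was kept in both.

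Cells of both libraries were clustered together without the 55 genes, which gave 12 clusters. Clusters 3 and 5 were G1/S and replication licensing-like, clusters 8 and 9 mid S phase-like (cluster 8 also had 11 of 17 raised mitotic markers), and clusters 6 and 10 G2 and mitosis-like. Cluster 4 was neuroblast or differentiating progenitor-like by Stmn4, Mxd4, Tubb3, Sox4 and Btg2, although Dcx, a defining neuroblast marker, stood at only 5.63 CPM. It also had 2 of 8 oligodendrocyte precursor markers raised, Olig1 and Lhfpl3. Both Lhfpl3 and Mxd4 were among its 10 leading genes. Of the same precursor list, cluster 3 had 3 of 8 raised. Cluster 11 was integrated stress response-like, with 11 of 12 markers of that response raised. Cluster 1 was astrocyte or quiescent stem cell-like by 6 of 18 markers, none of them among its 10 leading genes, and Gfap stood there at 0.872 CPM. Cluster 2 stayed unnamed, and so did clusters 7 and 12, whose cells were shallow (medians of 2422.5 and 3615 UMIs in the young library). Cluster 12 held too few UMIs to be used. Mki67, a marker of cycling cells, ranged from 1261 and 1260 CPM (young and aged) in cluster 6 to 38.1 and 29.0 CPM in cluster 11, and stood at 58.2 and 36.6 CPM in cluster 4. The remaining clusters lay between these.

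The 4 promoters shown here belong to genes whose levels differed clearly between the cell states: Ezh2, Suv39h1 and Suv39h2, which were low together in clusters 4 and 11, and Kdm5b, which was low in the S phase-like clusters. They are RefSeq windows on GRCm38.p6, from 250 bases before to 50 bases after a start site, written 5′ to 3′ on the gene's strand. Capitals mark matches to an E2F-type motif (TTTCCCGC, TTTGGCGC, TTTCGCGC or TTTGCCGC) or to a cell cycle homology region (TTTGAA), searched on both strands. The E2F family and the complexes that bind the homology region are known to govern cell cycle genes.
Ezh2, chr6:47594981-47595280, minus strand: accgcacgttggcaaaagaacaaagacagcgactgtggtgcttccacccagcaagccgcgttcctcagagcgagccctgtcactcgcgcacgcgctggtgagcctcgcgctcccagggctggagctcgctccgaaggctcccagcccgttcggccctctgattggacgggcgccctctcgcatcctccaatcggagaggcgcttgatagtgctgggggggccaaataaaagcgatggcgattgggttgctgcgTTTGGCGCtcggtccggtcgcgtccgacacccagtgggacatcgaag
Suv39h1, chrX:8074312-8074611, minus strand: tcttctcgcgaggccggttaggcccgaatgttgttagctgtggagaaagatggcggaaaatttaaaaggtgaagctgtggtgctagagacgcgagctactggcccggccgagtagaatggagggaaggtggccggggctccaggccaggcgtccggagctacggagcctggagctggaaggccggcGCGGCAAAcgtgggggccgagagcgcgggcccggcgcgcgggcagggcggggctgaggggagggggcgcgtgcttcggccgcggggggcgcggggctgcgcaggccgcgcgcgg
Suv39h2, chr2:3474937-3475236, minus strand: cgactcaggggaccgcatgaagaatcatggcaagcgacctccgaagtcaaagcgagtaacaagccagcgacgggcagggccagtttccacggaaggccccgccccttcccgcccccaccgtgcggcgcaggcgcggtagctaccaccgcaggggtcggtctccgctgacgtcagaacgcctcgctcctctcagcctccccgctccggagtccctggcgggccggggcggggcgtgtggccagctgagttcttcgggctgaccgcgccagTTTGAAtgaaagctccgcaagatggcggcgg
Kdm5b, chr1:134559928-134560227, plus strand: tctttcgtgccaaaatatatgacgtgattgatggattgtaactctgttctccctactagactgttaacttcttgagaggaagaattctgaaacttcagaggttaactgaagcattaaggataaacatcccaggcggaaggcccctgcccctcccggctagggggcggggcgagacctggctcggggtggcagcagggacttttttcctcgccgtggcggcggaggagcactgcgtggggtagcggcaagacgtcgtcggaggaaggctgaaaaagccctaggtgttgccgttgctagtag

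The Ezh2 window held an E2F-type match 3 bases after the start site, and the Suv39h1 window held one 64 bases before it, on the opposite strand. A further Suv39h1 window, at chrX:8074711-8075010, held none. The Suv39h2 window held a homology region match 19 bases after its start, and neither motif occurred in the Kdm5b window. Of 32851 RefSeq promoters of this length, 2.26% held an E2F-type match and 17.9% a homology region match. Promoters were found for 43 of the 55 genes, in 58 windows, of which 3 held an E2F-type match (Ezh2, Suv39h1 and Prdm4) and 4 a homology region match. A match is a description of letters and not a site of binding, which these data do not measure.

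Between the ages the genes stood close to each other. Of the 55 genes, 41 reached 10 CPM in either library and were compared by the ratio of CPM plus 1. None of the 41 had a log2 ratio (aged over young) of 0.32 or more, against 4.02% of 8331 genes so compared, and none had one of −0.32 or less, against 3.36%. At 1.5-fold the counts were also 0 and 0, against 0.804% and 0.756% of all compared genes. The log2 ratios ran from −0.22 (Prdm4) to 0.25 (Kdm7a).

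Small differences lay mostly in the direction of the aged library. Of the 41 genes, 35 (85.4%) were higher there by any amount, against 55.4% of all compared genes, and the median log2 ratio was 0.08 against 0.02. With trimmed mean scaling, which moves all ratios by 0.03, the count was 30 of 41 (73.2%), against 47.1% of all genes. When each cell was thinned to 5000 UMIs it was 25 of 40 (62.5%), against 54.3%, which is closer to the background than any other alternative tried. Without the stress response-like cells, which were 2.43% of the young and 5.74% of the aged cells, it was again 35, against 56.1%. By listed role, 7 of 7 genes listed as H3K4 methyltransferases were higher in the aged library (median log2 ratio 0.11). Kmt2e is counted among these 7, and the activity of the encoded proteins was not measured. The counts were 5 of 5 for H3K9 demethylases (0.19), 4 of 5 for H3K9 methyltransferases (0.05) and 3 of 5 for H3K4 demethylases (0.12). With 1 library per age, none of these counts has a replicate behind it.

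**Figure D1:**
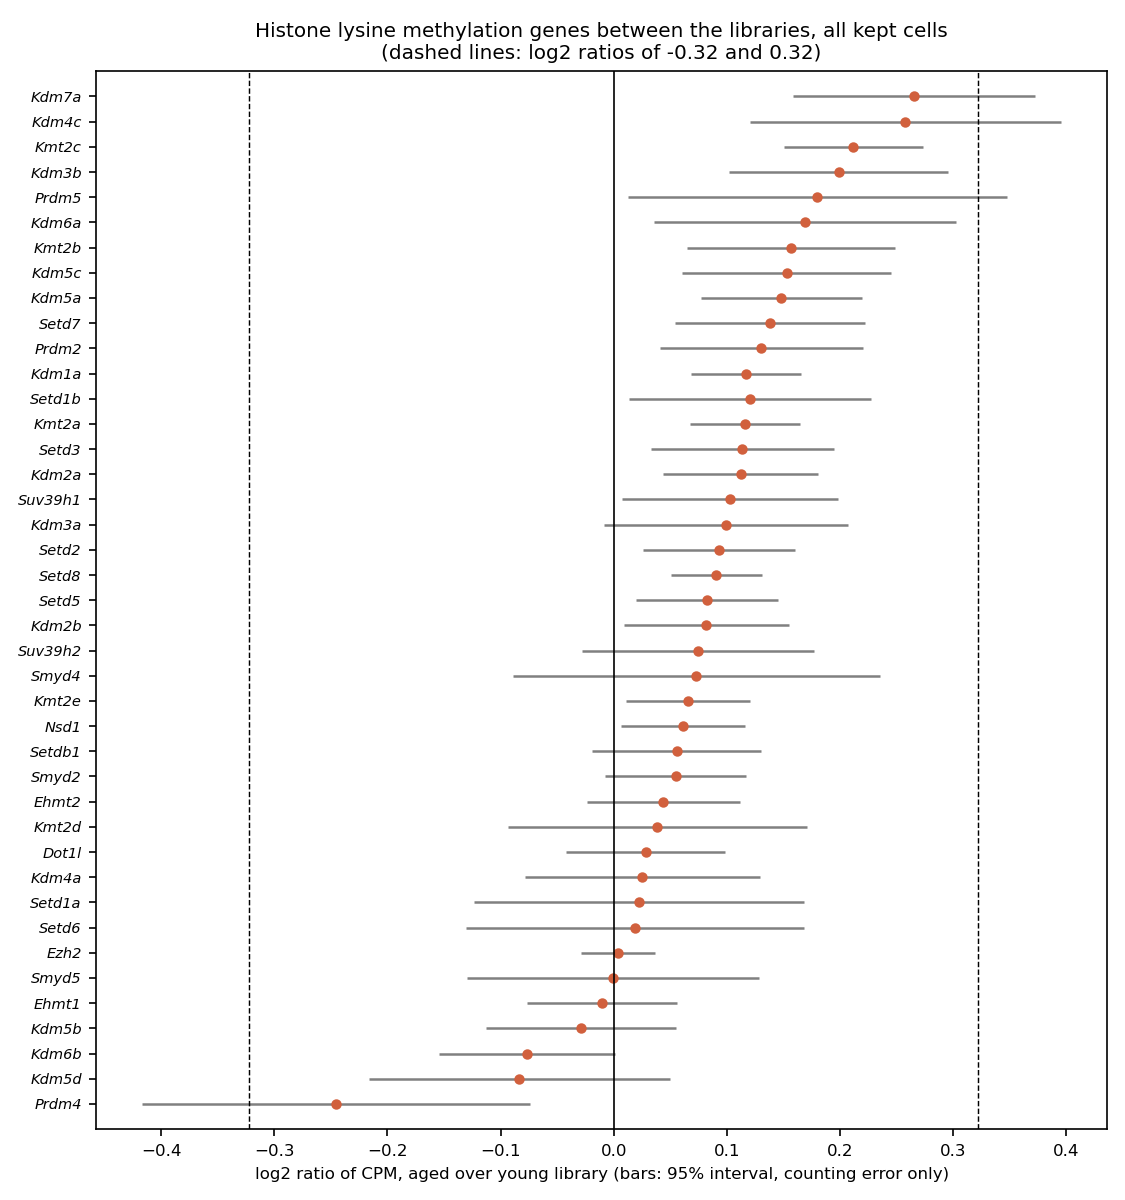
Log2 ratio of CPM, aged over young library (x axis), for the 41 compared genes (y axis), summed over all kept cells; points are the ratios, bars their 95% intervals for counting error only, and dashed lines mark log2 ratios of −0.32 and 0.32. No point lies past a dashed line, and 35 points lie to the right of 0.

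The largest single ratios by age among the compared genes were small. Kdm7a, a Jumonji demethylase of H3K9 and H3K27, stood at 22.0 CPM in the young and 26.4 CPM in the aged library, 1.2-fold higher (interval 1.12 to 1.29). Kdm4c, which demethylates H3K9 and H3K36, stood at 13.4 and 16.0 CPM, 1.2-fold higher (1.09 to 1.32). Kmt2c, which monomethylates H3K4 at enhancers, stood at 67.3 and 78.0 CPM, 1.16-fold higher (1.11 to 1.21). In the other direction Prdm4, a zinc finger protein that recruits an arginine methyltransferase, stood at 10.3 and 8.70 CPM, 1.19-fold lower in the aged library (1.05 to 1.34). All 4 intervals leave out equality, but counting error is the only error they hold.

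Ratios between cell states were larger than those by age, but the measures are unlike. The former takes the extremes of many clusters, and the latter is a single ratio of whole libraries. Among all compared genes too, 46.2% were at least 1.5-fold apart between states, while 0.804% were 1.5-fold higher and 0.756% lower by age. For each gene the highest and lowest cluster were picked in one library and their ratio of CPM plus 1 was read in the other, both ways. Over 11 clusters, 25 of 41 genes (61%) were at least 1.5-fold apart both ways, against 46.2% of all compared genes and 39.1% of those not used to build the clusters. Without the shallow cluster 7 the count was 18 (43.9%), against 37.6% and 30.7%, and 9 genes were apart only when that cluster was included. The median of the smaller ratio over the other 10 clusters was 1.39 for the 41 genes and 1.36 for all compared genes. Both counts lay above their background shares, by less without the shallow cluster, while the medians were close, and a few genes carried the large ratios. The highest of the 10 clusters was the same one in both libraries for 15 of the 41 genes, and the lowest for 18.

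**Figure D2:**
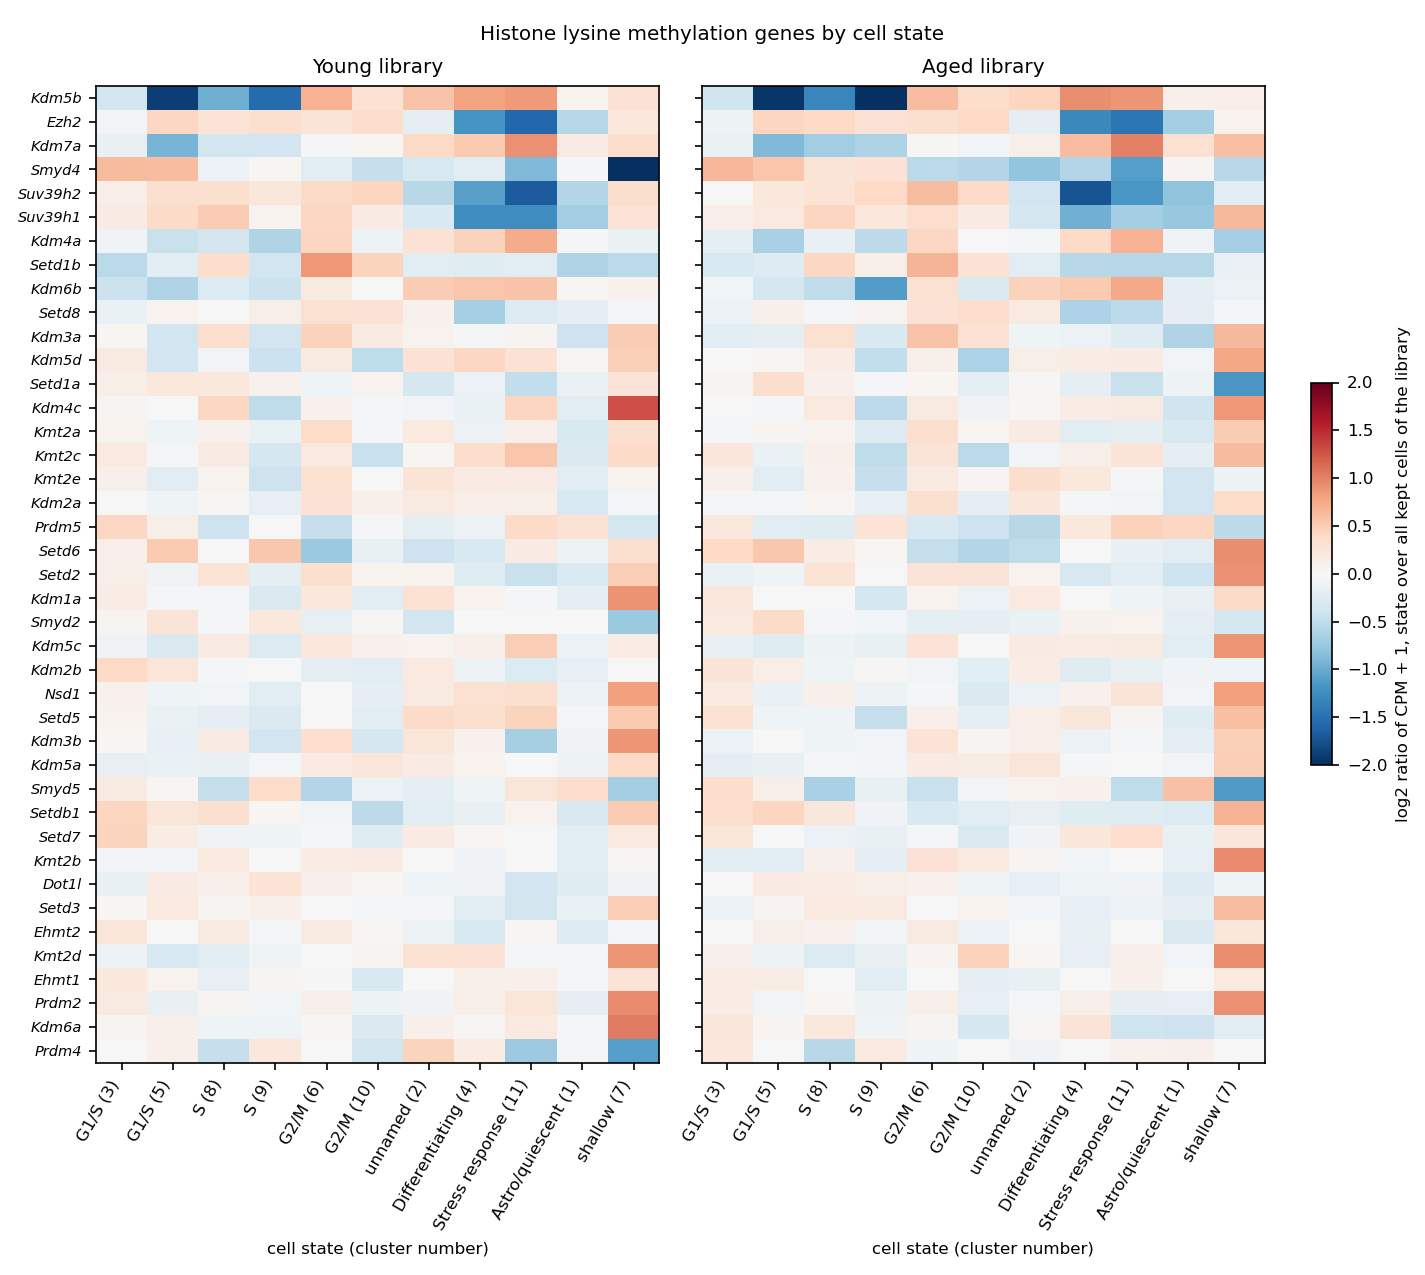
Log2 ratio of CPM plus 1 in each cluster over all kept cells of the same library (colour), for 41 genes (rows, sorted by their ratio between states) and 11 clusters (columns), young on the left and aged on the right. Kdm5b is blue in the S phase-like clusters, and Ezh2, Suv39h1 and Suv39h2 are blue in clusters 4 and 11, in both panels.

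**Figure D3:**
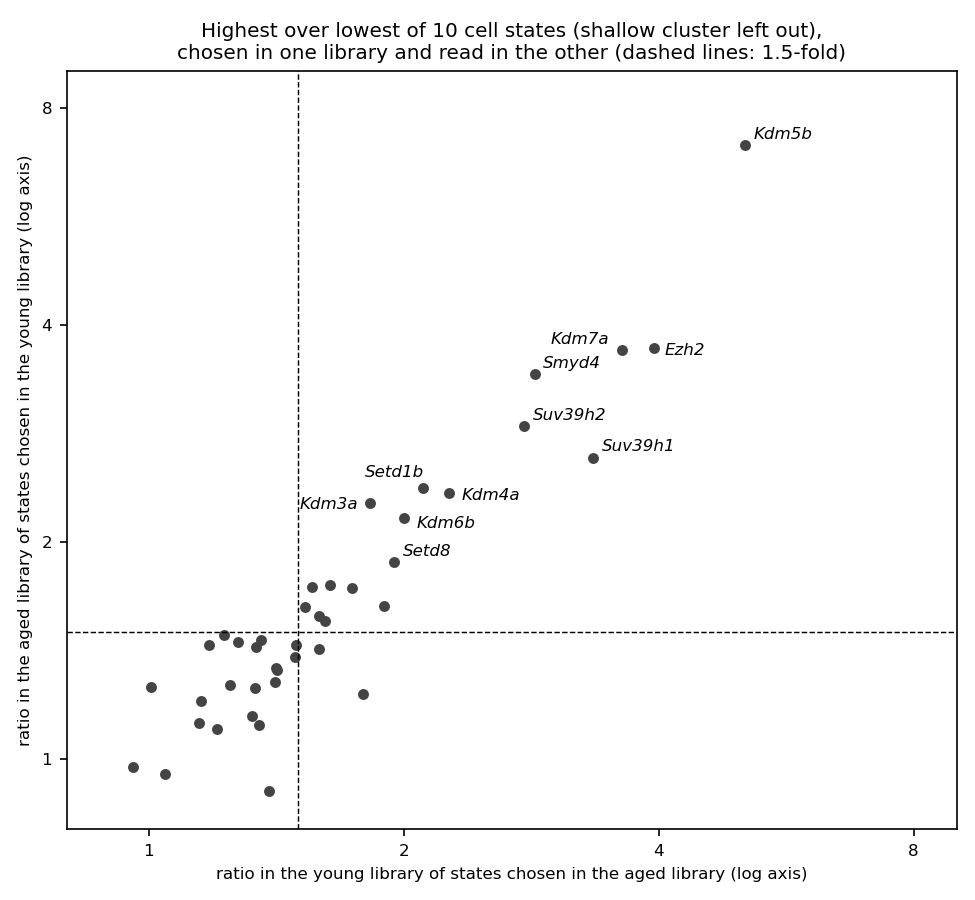
Ratio of CPM plus 1 between the highest and the lowest of 10 clusters, picked in one library and read in the other (both axes log scaled), 1 point per gene for 41 genes; dashed lines mark 1.5-fold. Kdm5b lies farthest out, at 5.06 and 7.12, and 18 genes lie past both lines.

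Ezh2, the catalytic subunit of Polycomb repressive complex 2 that writes H3K27 methylation, was level between the ages, at 248 CPM in the young and 249 CPM in the aged library (1.0-fold, 0.980 to 1.03). It differed widely between states. In the 6 clusters named by cell cycle markers (3, 5, 8, 9, 6 and 10) it ran from 233 to 334 CPM over both libraries, with the highest values in cluster 5 (330 and 334 CPM). Cluster 2 stood at 219 and 218 CPM and cluster 1 at 167 and 155 CPM. The lowest values were 107 and 101 CPM in cluster 4 and 82.8 and 89.2 CPM in cluster 11. The 6 cell cycle clusters thus did not overlap with clusters 1, 2, 4 or 11. The share of all genes that part these clusters in this way is not given. Against all other cells, Ezh2 was 2.43-fold lower in cluster 4 in the young library (2.23 to 2.66) and 2.60-fold lower in the aged library (2.38 to 2.85). In cluster 11 it was 3.04-fold (2.53 to 3.69) and 2.89-fold lower (2.58 to 3.25). Clusters 4 and 11 also had the lowest Mki67. Clusters 1 and 3 did not keep this order. Mki67 stood at 184 and 148 CPM in cluster 1 and at 152 and 135 CPM in cluster 3. Ezh2 was nevertheless lower in cluster 1 than in cluster 3 (238 and 233 CPM). The part of cell cycling in these differences was not tested.

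Ezh1, the second H3K27 methyltransferase and the one known from non-dividing cells, was sparse, with 130 young and 161 aged UMIs (2.21 and 2.68 CPM). Of the 10 deeper clusters (all but the shallow clusters 7 and 12), cluster 4 was highest in both libraries, with 20 UMIs (3.97 CPM, 2.43 to 6.14) and 30 UMIs (6.10 CPM, 4.12 to 8.71). The shallow cluster 7 held 3 UMIs (4.25 CPM, 0.877 to 12.4) and 1 UMI (1.76 CPM). In cluster 5, where Ezh2 was highest, Ezh1 had 8 UMIs (1.34 CPM) and 4 UMIs (0.575 CPM). In cluster 11, where Ezh2 was lowest, Ezh1 had 1 UMI (0.733 CPM, 0.0186 to 4.08) and 14 UMIs (4.19 CPM, 2.29 to 7.03). No opposite profile of Ezh1 and Ezh2 is read from these values. Values this low leave Ezh1 outside the counts above.

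The H3K27 demethylases differed from each other in how evenly they were spread. Kdm6a (Utx), the X-linked demethylase, stood at 14.7 CPM in the young and 16.5 CPM in the aged library, and between 11.8 and 19.9 CPM in the 10 deeper clusters. Its profile over these clusters was little alike in both libraries (Pearson r = 0.17 over 10 clusters, as a description). Kdm6b (Jmjd3) stood at 46.5 and 44.1 CPM over all cells. It was highest in cluster 11 (69.6 and 75.2 CPM), cluster 4 (68.8 and 64.1 CPM) and cluster 2 (66.3 and 60.9 CPM). In the 4 S phase-like clusters it ran from 19.8 to 42.5 CPM, below those 3, which were picked for their high values. The aged values of clusters 1, 7 and 10 fell inside that range, and their young values lay above it. Kdm6b was 1.60-fold lower in the S phase-like cells than in all others in the young library (1.48 to 1.74) and 1.63-fold lower in the aged library (1.51 to 1.78). The antisense gene Kdm6bos overlaps Kdm6b and had 65 UMIs. No source used here gives the strand setting of the counting, so reads of the pair cannot be told apart. The same limit holds for further genes with an overlapping gene on the opposite strand. Among them are Kmt2e with Srpk2 (27600 UMIs), Setdb1 with Cers2 (15257), Kdm5a with Ccdc77 (4659) and Kdm2b with Rnf34 (4216). Kdm1b overlaps Dek (73345 UMIs) in this way too.

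Suv39h1 and Suv39h2, the paired enzymes that trimethylate H3K9 in heterochromatin, followed Ezh2. Suv39h1 stood at 29.0 and 31.2 CPM over all cells and Suv39h2 at 25.3 and 26.6 CPM. Suv39h1 ran from 30.6 to 42.1 CPM in the 6 cell cycle clusters, with its highest values in cluster 8 (41.6 and 42.1 CPM). It stood at 17.6 and 18.1 CPM in cluster 1, 11.7 and 15.5 CPM in cluster 4, and 11.7 and 19.2 CPM in cluster 11. Suv39h2 ran from 26.3 to 41.5 CPM in the cell cycle clusters, against 16.5 and 14.8 CPM in cluster 1, 11.3 and 7.32 CPM in cluster 4, and 7.33 and 11.4 CPM in cluster 11. For both genes the cell cycle clusters did not overlap with clusters 1, 4 and 11, which are named for their low values. Cluster 2 lay below the cell cycle range too, at 23.3 and 24.1 CPM for Suv39h1 and 16.8 and 20.3 CPM for Suv39h2. The share of all genes that part these clusters in this way is not given.

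The size of these differences varied between the libraries for both genes. In cluster 4 Suv39h1 was 2.61-fold lower than in all other cells in the young library (2.02 to 3.45) and 2.11-fold lower in the aged library (1.68 to 2.69). Suv39h2 was 2.35-fold (1.8 to 3.11) and 3.87-fold lower there (2.78 to 5.54). In cluster 11 Suv39h1 was 2.51-fold (1.54 to 4.40) and 1.66-fold lower (1.30 to 2.17), and Suv39h2 was 3.51-fold (1.9 to 7.32) and 2.42-fold lower (1.75 to 3.43). The direction was the same in both libraries and both clusters, and the intervals of the libraries overlapped for each gene in each cluster. Over the 10 deeper clusters the profile of Ezh2 had a Pearson r of 0.96 (young) and 0.92 (aged) with Suv39h1, and of 0.97 and 0.95 with Suv39h2. These points share the same cells and libraries, and no p is given. Suv39h2 overlaps Dclre1c on the other strand, which had 849 UMIs.

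The remaining H3K9 methyltransferases varied less. Setdb1, which trimethylates H3K9 at silenced repeats, stood at 47.7 and 49.5 CPM over all cells, and was 1.38-fold higher in S phase-like cells than in others in the young library (1.28 to 1.49) and 1.41-fold in the aged library (1.31 to 1.52). Ehmt1 (GLP) stood at 61.9 and 61.4 CPM and ran from 50.1 to 71.8 CPM over the 10 deeper clusters. Its partner Ehmt2 (G9a) stood at 58.9 and 60.7 CPM and ran from 47.7 to 70.0 CPM. Setdb2 was under 10 CPM, with 226 and 240 UMIs. In this group 2 of 5 compared genes, Suv39h1 and Suv39h2, were at least 1.5-fold apart between states, with or without the shallow cluster. Of all compared genes 46.2% were so with it and 37.6% without it.

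**Figure D4:**
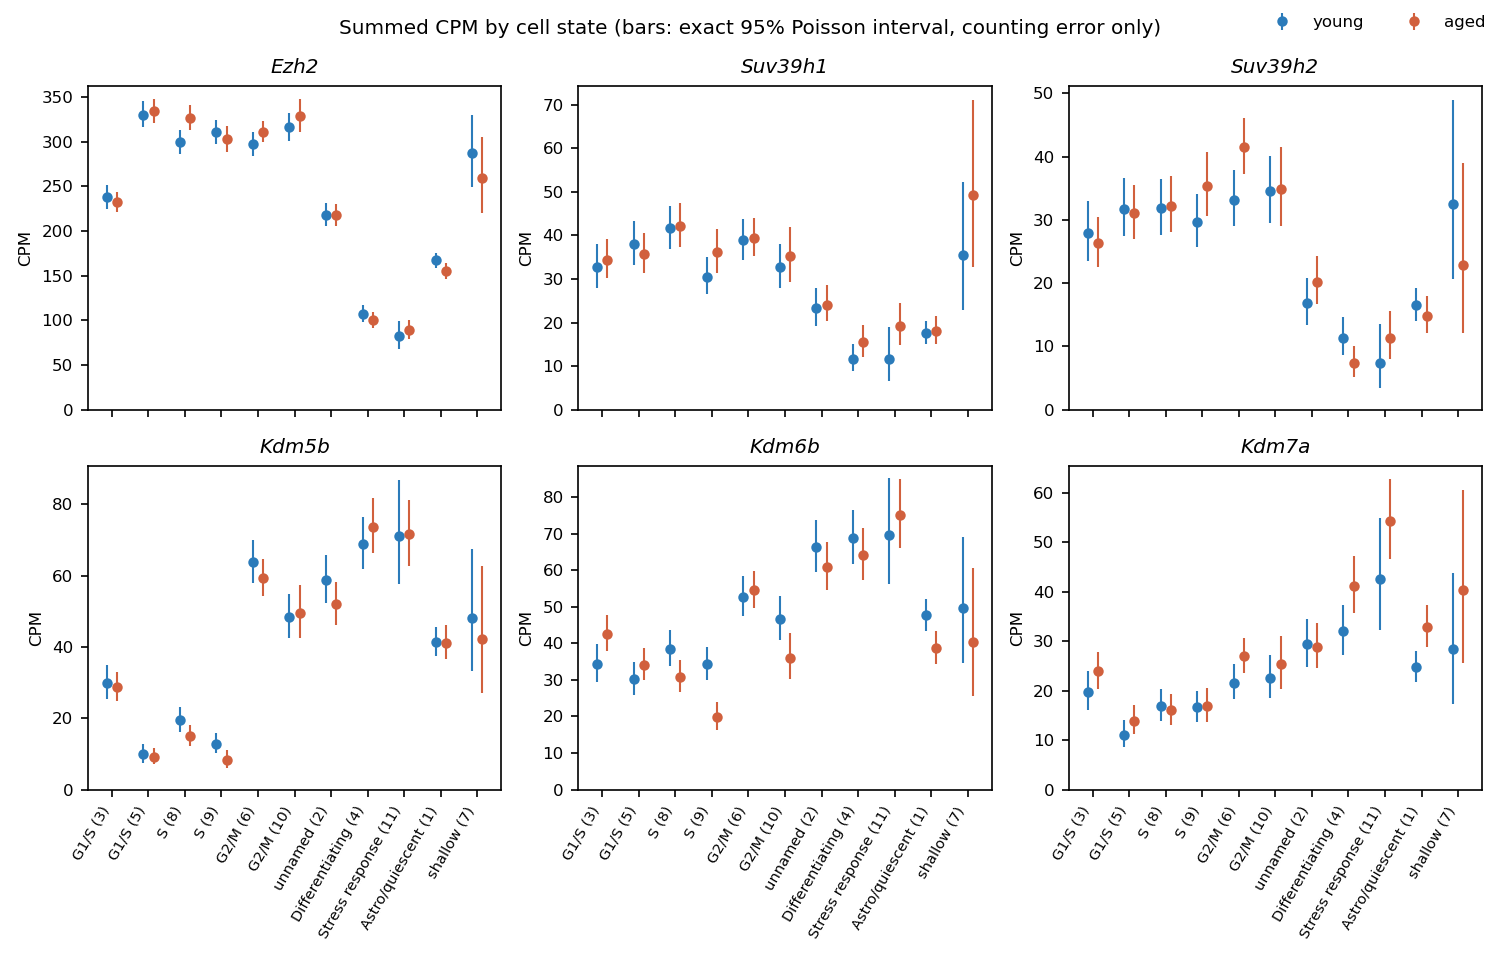
Summed CPM (y axis) of Ezh2, Suv39h1, Suv39h2, Kdm5b, Kdm6b and Kdm7a in 11 clusters (x axis), young in blue and aged in orange; points are 1 library each and bars are exact 95% Poisson intervals for counting error only. Ezh2, Suv39h1 and Suv39h2 dip in clusters 4, 11 and 1, while Kdm5b, Kdm6b and Kdm7a are lowest among the S phase-like clusters.

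The H3K9 demethylases did not share a single profile. Of the 10 deeper clusters, Kdm7a and Kdm4a were highest in cluster 11 in both libraries, and Kdm3a and Kdm3b in cluster 6. Kdm7a was lowest in cluster 5 (11.0 and 13.9 CPM) and highest in cluster 11 (42.5 CPM, 32.3 to 55.0, and 54.2 CPM, 46.6 to 62.7). It was 1.98-fold higher in cluster 11 than in all other cells in the young library (1.49 to 2.58) and 2.19-fold in the aged library (1.86 to 2.56). In S phase-like cells it was 1.65-fold (1.46 to 1.86) and 1.87-fold lower (1.67 to 2.09). Its r with Ezh2 over the 10 clusters was −0.84 and −0.89.

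Kdm4a, a demethylase of H3K9 and H3K36, stood at 25.1 and 25.5 CPM over all cells, at 42.5 and 41.9 CPM in cluster 11, and at 18.2 and 15.9 CPM in cluster 5. It was 1.72-fold (1.30 to 2.24) and 1.71-fold higher (1.43 to 2.03) in cluster 11 than elsewhere, and 1.53-fold (1.37 to 1.72) and 1.52-fold lower (1.36 to 1.69) in S phase-like cells. Kdm4c stood at 34.0 and 29.9 CPM in the shallow cluster 7 and at no more than 18.6 CPM in the others. Its ratio between states was 2.61 with that cluster and 1.63 without it. Kdm3a, which removes H3K9 mono- and dimethylation, was highest in cluster 6 of the 10 deeper clusters (31.5 and 36.5 CPM) and lowest in cluster 1 (16.8 and 15.5 CPM), and in cluster 11 it was 1.04-fold (0.707 to 1.47) and 0.833-fold (0.643 to 1.06) the level elsewhere. Kdm3b was 0.613-fold (0.388 to 0.924) and 0.966-fold (0.782 to 1.18) the level elsewhere in cluster 11. Kdm4b was under 10 CPM. In all, 4 of 5 compared H3K9 demethylases were at least 1.5-fold apart over 11 clusters, and 4 over the 10 deeper ones, against 46.2% and 37.6% of all compared genes.

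Kdm5b, a demethylase of H3K4 di- and trimethylation, had the widest range of the compared genes. Over all cells it stood at 39.1 CPM in the young and 38.4 CPM in the aged library. In cluster 5 it stood at 9.86 CPM (7.5 to 12.7) and 9.20 CPM (7.08 to 11.7), and in cluster 9 at 12.8 and 8.33 CPM. Cluster 8 stood at 19.4 and 14.9 CPM and cluster 3 at 29.9 and 28.8 CPM. These S phase-like clusters held the lowest values in both libraries. The G2 and mitosis-like clusters stood at 63.8 and 59.3 CPM (cluster 6) and 48.3 and 49.5 CPM (cluster 10). The highest values were 68.8 and 73.6 CPM in cluster 4 and 71.1 and 71.6 CPM in cluster 11. The 8 S phase-like values lay between 8.33 and 29.9 CPM, and those of the 7 other clusters used at 41.0 CPM or more.

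Read against all other cells, Kdm5b was 3.13-fold lower in S phase-like cells in the young library (2.82 to 3.49) and 3.57-fold lower in the aged library (3.20 to 3.98). It was 1.66-fold higher in G2 and mitosis-like cells in both libraries. In cluster 4 it was 1.89-fold (1.68 to 2.12) and 2.09-fold higher (1.86 to 2.34), and in cluster 11 1.85-fold (1.5 to 2.27) and 1.97-fold higher (1.71 to 2.25). With coarser clusters (resolution 0.5) its log2 ratio in G2 and mitosis-like cells was −0.06, so that direction depends on how finely the cycle was divided. Over the 10 clusters its profile had an r of 0.91 and 0.86 with Kdm6b, and of 0.99 with itself between the libraries.

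The other H3K4 demethylases were more even. Kdm1a (LSD1), the amine oxidase, stood at 110 and 119 CPM over all cells and ran from 89.9 to 139 CPM in the 10 deeper clusters. Kdm5a stood at 51.6 and 57.2 CPM and ran from 46.0 to 67.5 CPM. The X-linked Kdm5c stood at 30.5 and 33.9 CPM and its Y-linked partner Kdm5d at 16.0 and 15.1 CPM, so Y-linked transcripts were present in both pools. Kdm1b was under 10 CPM. Among these genes and Kdm5b, 2 of 5 were at least 1.5-fold apart without the shallow cluster, Kdm5b and Kdm5d (37.6% of all compared genes).

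Among the genes listed as H3K4 methyltransferases Setd1b, a catalytic subunit of a COMPASS complex, was the one past 1.5-fold in a cell cycle state in both libraries. It stood at 23.0 and 25.0 CPM over all cells, at 42.8 and 40.7 CPM in cluster 6 and at 14.8 and 16.5 CPM in cluster 1. In G2 and mitosis-like cells it was 1.98-fold (1.77 to 2.22) and 1.73-fold higher (1.54 to 1.93) than in others. Kmt2a (MLL1), which is required for neurogenesis from SVZ stem cells, stood at 112 and 121 CPM over all cells. It was highest in cluster 6 among the deeper clusters (144 and 153 CPM) and lowest in cluster 1 (90.1 and 96.6 CPM). Kmt2d stood at 15.6 and 16.1 CPM over all cells and was apart only through the shallow cluster 7 (29.8 and 31.6 CPM), with a ratio of 2.05 with it and 1.10 without it. Of the 7 genes listed in this group 5 were at least 1.5-fold apart without that cluster: Kmt2a, Kmt2c, Kmt2e, Setd1a and Setd1b (37.6% of all compared genes).

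Of the remaining enzymes of the marks over transcribed genes, Kdm2a was at least 1.5-fold apart over the deeper clusters, and Nsd1, Setd2, Kdm2b and Dot1l were not. Nsd1, which dimethylates H3K36, stood at 88.6 and 92.5 CPM, and Setd2, which trimethylates it, at 58.2 and 62.0 CPM. Both were at least 1.5-fold apart when the shallow cluster was included. Dot1l, the H3K79 methyltransferase, stood at 55.1 and 56.2 CPM and ran from 41.8 to 66.6 CPM over the 10 deeper clusters. The H3K36 demethylase Kdm2b, also part of a variant Polycomb complex, stood at 49.6 and 52.5 CPM, with its highest values in cluster 3 (65.5 and 63.2 CPM). Kdm2a, which also demethylates H3K36, was 1.53-fold apart over the deeper clusters, highest in cluster 6 (69.2 and 76.0 CPM) and lowest in cluster 1 (44.9 and 46.4 CPM).

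Setd8, the H4K20 monomethyltransferase that acts in mitosis and chromatin compaction, stood at 164 and 175 CPM. Its highest values were in the G2 and mitosis-like clusters 6 (203 and 213 CPM) and 10 (201 and 224 CPM). It was lowest in cluster 4 (103 and 113 CPM), 1.65-fold (1.51 to 1.81) and 1.59-fold lower (1.46 to 1.74) than in all other cells. In G2 and mitosis-like cells it was 1.31-fold (1.249 to 1.37) and 1.32-fold higher (1.26 to 1.38).

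Most PRDM genes were near the limit of detection, and 3 of 10 reached 10 CPM. Prdm1 (Blimp-1), a repressor of transcription, had 102 UMIs in the young and 169 UMIs in the aged library, 1.73 and 2.81 CPM, a ratio of 1.62 (1.26 to 2.10). It was highest in cluster 1 in both libraries, with 40 UMIs (3.98 CPM, 2.84 to 5.42) and 53 UMIs (7.42 CPM, 5.56 to 9.71), and lowest of the deeper clusters in cluster 8, with 2 and 4 UMIs. The aged library held a smaller share of cluster 1 cells, 10.9% against 15.1%. Prdm16, known from embryonic and adult neural stem cells, had 10 and 23 UMIs. Of these, 4 and 7 were in cluster 1, 3 and 6 in cluster 9, and 3 and 4 in cluster 10, which are among the clusters with raised Gja1, an astrocyte marker. Prdm8 had 186 and 188 UMIs and none in cluster 7, where a count of 0 allows up to 5.23 and 6.48 CPM. In cluster 11 it had 0 and 3 UMIs.

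Of the SMYD genes, which encode methyltransferases with a MYND domain, Smyd4 differed most. It stood at 16.5 and 17.8 CPM in cluster 3 and at 16.4 and 16.4 CPM in cluster 5. In cluster 11 it stood at 5.13 CPM (2.06 to 10.6) and 4.49 CPM (2.51 to 7.41). Of the remaining SETD genes, Setd6, which methylates the RelA subunit of NF-kB, was 1.57-fold (1.35 to 1.82) and 1.56-fold higher (1.35 to 1.81) in S phase-like cells, at 15.6 CPM in both libraries against 9.96 and 10.0 CPM in other cells.

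Counted by state at 1.5-fold in both libraries, on CPM plus 1, the genes were spread as follows. Beside each count stand the shares of all compared genes and of the compared genes not used to build the clusters. In G2 and mitosis-like cells 2 of 41 were higher (Kdm5b and Setd1b; 3.3% and 1.73%) and 0 lower (1.99% and 0.913%). In S phase-like cells 1 was higher (Setd6; 3% and 1.77%) and 3 lower (Kdm5b, Kdm6b and Kdm7a; 1.04% and 0.337%). In cluster 1 none was higher (2.22% and 0.66%) and 4 lower (Ezh2, Setd1b, Suv39h1 and Suv39h2; 6.34% and 2.92%). In cluster 4, 2 were higher (Kdm5b and Kdm6b; 1.93% and 0.913%) and 4 lower (Ezh2, Setd8, Suv39h1 and Suv39h2; 7.57% and 4.34%). In cluster 11, 4 were higher (Kdm4a, Kdm5b, Kdm6b and Kdm7a; 2.87% and 2.18%) and 4 lower (Ezh2, Smyd4, Suv39h1 and Suv39h2; 8.83% and 5.66%). In the shallow cluster 7, 4 were higher (Kdm4c, Kmt2d, Nsd1 and Prdm2; 8.28% and 5.33%) and 1 lower (Smyd5; 4.74% and 4.48%). Kdm7a just missed the count in cluster 4, where it was 1.52-fold (1.28 to 1.8) and 1.64-fold higher (1.41 to 1.90) in CPM. In S phase-like cells 1 library fell short for Kdm4a, 1.53-fold and 1.52-fold lower in CPM. The same held there for Smyd4, 1.53-fold (1.30 to 1.81) and 2.07-fold higher (1.76 to 2.43). The 4 of 41 lower in clusters 4 and 11 (9.76%) lay near the shares of all compared genes there. They lay above the shares of genes not used to build the clusters (4.34% and 5.66%). With 4 genes in each count, nothing particular to these genes is read from them.

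Within single clusters, the share of the genes that were higher in the aged library differed. It was highest in cluster 6, with 31 of 39 (79.5%, against 54.8% of all compared genes there), and cluster 5, with 32 of 41 (58.9% of all). In clusters 3 and 4 it was near that of all genes, with 24 of 43 (55.8% against 53.5%) and 23 of 41 (56.1% against 54%). It was lowest in cluster 11, with 19 of 39 (48.7% against 49%). Past 1.5-fold, Kdm6b was lower in aged cells of cluster 9 (34.2 CPM, 29.99 to 38.9, against 19.8 CPM, 16.3 to 23.9; 1.73% of all genes were lower to that degree). Setd1b was higher there (17.3 CPM, 14.4 to 20.8, against 27.1 CPM, 23.0 to 31.8; 2.61%). In cluster 11, which held 64 young and 145 aged cells, 2 of 39 genes were higher (5.13%, near the 4.78% of all genes). Suv39h1 stood there at 11.7 CPM (16 UMIs, 6.70 to 19.0) and 19.2 CPM (64 UMIs, 14.8 to 24.5). Kdm3b stood at 16.9 CPM (23 UMIs, 10.7 to 25.3) and 30.2 CPM (101 UMIs, 24.6 to 36.8). The intervals of the libraries overlapped for both genes. Smyd5 was lower in cluster 11 (4.34%). Elsewhere among the deeper clusters, Prdm4 was lower in cluster 2 (1.32%), and Smyd3 was lower in cluster 3 (1.74%) and higher in cluster 5 (1.68%). Kdm6b was not lower to that degree in any other cluster. The shallow cluster 7 had the most genes past 1.5-fold. There 4 of 40 were higher (Kdm5c, Kmt2b, Setd6 and Setd4) and 3 lower (Kdm6a, Setd1a and Setdb2), against 12.5% and 11.3% of all compared genes. Kdm6a had 22 and 8 UMIs there, with intervals of 19.5 to 47.2 CPM and 6.07 to 27.7 CPM, and Kmt2b had 22 and 38 UMIs, 31.2 CPM and 66.7 CPM (47.2 to 91.6).

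Partners of these enzymes were read from lists of complex members, some of which had been used to build the clusters. None reached a log2 ratio of 0.32 by age in either direction, and the largest ratio was that of Jarid2, a Polycomb repressive complex 2 cofactor, at 26.3 and 32.0 CPM (log2 ratio 0.27). Suz12, a core subunit of that complex, was low in cluster 4, at 58.0 and 58.6 CPM against 116 and 119 CPM in other cells, and was used to build the clusters. Over 11 clusters, 5 of 7 compared Polycomb repressive complex 2 partners were at least 1.5-fold apart, 2 of 11 Polycomb repressive complex 1 genes and 2 of 11 COMPASS partners, against 46.2% of all compared genes. Without the shallow cluster the counts were 5, 3 and 3, against 37.6%. The H3K9 reader Uhrf1 had the largest state ratio of these lists, at 151 and 145 CPM in S phase-like cells against 66.2 and 55.6 CPM in others, and was used to build the clusters too. Cbx5 (HP1 alpha), which binds methylated H3K9 and was not so used, stood at 218 and 226 CPM in cluster 11 against 354 and 381 CPM elsewhere.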

How the data were processed

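The deposited values are unnormalized UMI counts for each gene in each barcode. The submitters' processing notes name Cell Ranger 3.0.2 and the mm10 build; the annotation and strand setting of the authors' counting are not given in the sources used here. The genes and gene lists were chosen with earlier results of these data known.

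Barcodes with fewer than 1000 detected genes or over 10% mitochondrial UMIs were left out. Scrublet (in scanpy 1.11.5) called 11 young and 10 aged cells (0.415% and 0.394%), which were removed, so doublets were largely not detected. The kept cells were 2639 of 5151 and 2527 of 4731 barcodes.

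UMIs were summed per library and cluster, and a gene was compared where 1 of the libraries reached 10 CPM, with a pseudocount of 1 CPM. Levels have exact Poisson intervals and ratios exact conditional binomial intervals; no test was run, because each group has 1 library. Cells were clustered on 2000 variable genes (the 55 genes left out), 30 principal components, 20 neighbours and Leiden resolution 1 (leidenalg 0.10.2). A cluster took the name of the marker list with the highest share raised 1.5-fold over other cells at 10 CPM or more (at least 3 markers and 1 in 3 of the list), unless it was shallow or another list had more markers among its 10 leading genes; the markers were listed first, this scoring rule later. Clusters were used with at least 50 cells and 500000 UMIs in each library.

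Values are given for members with a log2 ratio by age of 0.32 or more in size, the 12 with the largest ratio between clusters, a list of well known members whatever their value, and up to 2 genes of each partner list; other members are named after their values were seen. Gene positions came from GENCODE vM21 and promoters from RefSeq. The counting rules were tested on simulated data. Alternatives changed the cell and gene filters, scaling, pseudocount, thinning and clustering; leaving out shallow clusters and stress response-like cells was chosen after seeing the data.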

Additional observations from a re-analysis of the deposited data

Results flagged for a closer look

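Barcodes that were left out for their mitochondrial share (1550 young and 1452 aged) were outside the comparisons and are given as values. Ezh2 stood there at 156.4 CPM in the young and 151.5 CPM in the aged library, against 248 and 249 CPM in the kept cells, 1.59-fold (1.54 to 1.64) and 1.64-fold lower (1.59 to 1.69). Suv39h2 stood at 14.48 and 15.62 CPM, against 25.3 and 26.6 CPM, 1.74-fold (1.58 to 1.93) and 1.70-fold lower (1.55 to 1.87). These were the 2 of 40 compared members (5%) at least 1.5-fold lower in the barcodes left out in both libraries, a share near the 4.46% of all genes, and 0 were higher (3.76%); nothing particular to the members is read from these counts. Among the genes under 100 UMIs, Smyd1 had 27 UMIs, Kdm4d 7 and Kdm6bos 65 over all barcodes.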

How the results depend on the processing

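No paired analysis was possible because each group has 1 library. With no replicate, depth limits genes under 10 CPM and the shallow and stress response-like clusters most, and no interval covers differences between cultures. The cause of each shift below was not tested, except that a 50 CPM minimum leaves 16 genes to compare. At a log2 ratio by age of 0.32 or more, 1 of 55 genes was counted with no minimum CPM. After thinning to 5000 UMIs it was 2 of 40 (0 of 41 as reported). At 50 CPM, 15 of 16 were higher by any amount, against 52.1% of all genes. Genes apart between states numbered 15 of 41 with at least 2500 detected genes per cell (25 of 41 as reported). They were 10 of 16 at 50 CPM and 11 of 40 after thinning. Shares of all genes are not given for the state counts here and below, so nothing particular to the members is read. With a mitochondrial limit of 20%, 4 of 40 were higher in G2 and mitosis and 4 higher in S phase (2 and 1 as reported). In the astrocyte or quiescent-like state 1 was then higher and 9 lower (0 and 4 as reported). At 50 CPM, 0 were higher in G2 and mitosis, 0 higher and 0 lower in S phase, 1 lower in the astrocyte or quiescent-like state, 0 higher and 1 lower in the stress response-like state, and 0 higher and 2 lower in the differentiating-like state. After thinning, 0 were higher and 1 lower in G2 and mitosis, 3 higher in S phase, 1 lower in the astrocyte or quiescent-like state and 1 higher in the differentiating-like state. With no minimum CPM, 2 were higher in S phase, 1 higher in the astrocyte or quiescent-like state, 7 lower in the stress response-like state and 4 higher in the differentiating-like state. With doublet calls kept, 0 were higher in S phase, 1 lower in G2 and mitosis and 1 higher in the astrocyte or quiescent-like state, where 1 was also higher with members among the variable genes. Phases from per-cell scores gave 1 higher and 1 lower in G2 and mitosis and 2 higher in S phase; a pseudocount of 0.1 gave 1 lower and 2 higher, and resolution 1.5 gave 2 higher in S phase. At least 2500 genes per cell gave 1 lower in G2 and mitosis. Of 352 alternative values of 27 state ratios, 1 reversed: Kdm5b in G2 and mitosis-like cells, with a log2 ratio of −0.0592 at resolution 0.5, where no differentiating-like cluster was found. The age ratio took another sign under at least 1 alternative for 17 of 41 genes, and the largest under any of them was 0.385 in size (log2).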
